A study of Mus musculus with 13 samples.

Results

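The genes for mitochondrial ribosomal proteins were followed in RNA sequencing of interscapular brown adipose tissue (iBAT) of mice. Members were the protein-coding genes whose mouse symbol starts with Mrpl or Mrps and a digit, taken by their names and not by a measured value, although the gene family itself was picked with earlier results of these data known. They numbered 78 of the 42416 Ensembl identifiers counted, and 51 belong to the large subunit, 26 to the small subunit, while Mrps36 keeps its name although it is now known as a subunit of the alpha-ketoglutarate dehydrogenase complex. Mrps30 and Mrps18a were counted with the large subunit, where their proteins sit despite the symbol.

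The data comprised 13 libraries, 8 labelled iFAXLKO and 5 labelled WT. Mice labelled iFAXLKO carried loxP-flanked Axl and were Cre positive, with an inducible CreERT2 driven by the adipocyte promoter Adipoq on a bacterial artificial chromosome per the study's methods. WT mice carried the same floxed Axl without Cre, so that both groups shared the floxed allele. Per the labels they also shared a high-fat diet (HFD) given ad libitum, room temperature and tamoxifen at intervals of 3 weeks. The study's methods describe hydroxy-tamoxifen gavage on consecutive days, repeated at that interval, for induction of the knockout. The study's reporting summary and figure legends give female mice for the tissue-specific knockout, and the legends name littermate controls. The age at dissection is not given in the labels. RNA came from the whole depot, whereas Cre acts in adipocytes.

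Axl, the receptor tyrosine kinase targeted by the deletion, was at 33.1 ± 6.16 CPM (SD, n = 8) in libraries labelled iFAXLKO and 27.8 ± 3.82 CPM (SD, n = 5) in WT. On the log2 scale this difference came to 0.25 (SE 0.13), and its adjusted p was 0.699 by edgeR's quasi-likelihood test with Benjamini-Hochberg adjustment. The targeted gene was thus not lower in the libraries labelled iFAXLKO, and every direction given here is one between labels. CPM stands for counts in each M of a library's total, scaled here by TMM (trimmed mean of M values) factors. Libraries held 22.4 to 32.6 M counts. All 12 brown adipocyte markers passed the filter. Their summed level was 16525 to 21538 CPM in libraries labelled iFAXLKO and 17996 to 26995 CPM in WT. The highest value was that of WT replicate 2, a library described further below.

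Mitochondrial ribosomes translate the few proteins encoded by mitochondrial DNA, all of them parts of the oxidative phosphorylation complexes. Their rRNAs are encoded in the mitochondrion, but every ribosomal protein is encoded in the nucleus and imported. Some of these proteins descend from bacterial ribosomal proteins, others arose in mitochondria. Brown fat is rich in mitochondria, and there the respiratory chain is uncoupled to make heat. NRF1, the ETS family factor GABP and YY1 are known as activators of many nuclear genes for mitochondrial proteins.

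RefSeq promoter windows of 300 bases, from 250 before to 50 after a start site, were at hand for 69 of the 78 members. The letters GCATGCGC, the core of the NRF1 motif, stood in 11.6% of these members against 5.90% of the 9988 tested genes with a window. The ETS core CCGGAAG stood in 37.7% against 19.9%, and the YY1 core AAGATGGCG in 11.6% against 3.60%, each searched on both strands. At least 1 of these 3 stood in 36 of 69 members, 52.2%, against 27.0% of the tested genes. The GC box GGGCGG was in 49.3% against 68.6%, and the ERR element TCAAGGTCA in 0 members against 0.340%. A match is a description of letters, not evidence of binding.

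Stretches upstream of a RefSeq start site are given for 7 members, in GRCm38.p6 coordinates from RefSeq. They read 5′ to 3′ on the gene's strand, with every base of the NRF1, ETS and YY1 cores in capitals. Mrpl34, Mrps22 and Mrps2 are shown over the 100 bases before the start. Mrpl34 is the most abundant member per kb of merged exon. Mrps22 is among the members with the smallest p, and Mrps2 departed from the rest. Mrpl34 lies at chr8:71464826-71464925, plus strand, Mrps22 at chr9:98601680-98601779, minus strand, and Mrps2 at chr2:28467966-28468065, plus strand. Mrps2 holds none of the 3 cores in this stretch.
Mrpl34: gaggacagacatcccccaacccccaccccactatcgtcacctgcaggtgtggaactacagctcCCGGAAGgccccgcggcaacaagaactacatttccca
Mrps22: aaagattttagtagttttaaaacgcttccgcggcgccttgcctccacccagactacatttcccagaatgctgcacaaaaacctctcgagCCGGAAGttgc
Mrps2: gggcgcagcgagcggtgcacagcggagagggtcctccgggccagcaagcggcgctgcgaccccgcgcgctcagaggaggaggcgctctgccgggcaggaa

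Shorter stretches of 30 bases show cores in other members, where the 100 bases before the RefSeq start overlap annotated exons of the same gene. The stretches of Mrpl32 and Mrpl36 lie inside the annotated gene, and that of Mrpl9 does in part. Mrpl22 (chr11:58171610-58171639, plus strand) holds an ETS core and, further downstream, an NRF1 core on the opposite strand. Mrpl32 (chr13:14613095-14613124, minus strand) holds the NRF1 core overlapping itself on both strands and once more downstream, and Mrpl9 (chr3:94443298-94443327, plus strand) holds the same overlapping pair. Mrpl36 (chr13:73330968-73330997, plus strand) holds the YY1 core on the opposite strand.
Mrpl22: cCCGGAAGccggcctcggactGCGCATGCg
Mrpl32: GCGCATGCGCaagaggggcctGCGCATGCt
Mrpl9: aggcgcagctGCGCATGCGCggggtccttc
Mrpl36: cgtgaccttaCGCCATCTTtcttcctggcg

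All 78 members passed the filter of more than 1 CPM in at least 5 libraries, so none was lost to low counts. Levels between genes are compared per kb of merged exon, which counts every annotated alternative end and so lowers the value of genes with many isoforms. On this scale the members spanned from 1.56 to 220 CPM per kb with a median of 24.9, and the median was 26.0 for the large and 20.2 for the small subunit. The highest level was that of Mrpl34, a homologue of bacterial L34, at 220 ± 42.0 CPM per kb (SD, n = 13). Next came Mrpl12, the protein of the stalk where translation factors dock, at 141 ± 28.5 CPM per kb. Mrpl54, a protein of the large subunit found in mitochondria and not in bacteria, followed at 82.0 ± 20.6 CPM per kb, then Mrpl10, which anchors the stalk, at 79.0 ± 9.11 CPM per kb. Mrpl54, Mrpl10 and Mrps21 at 78.9 ± 13.4 CPM per kb did not differ beyond their SDs.

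In the small subunit Mrps21 led, followed by Mrps23 at 60.1 ± 7.97, Mrps28 at 56.4 ± 9.42 and Mrps7 at 50.5 ± 7.52 CPM per kb. Neighbours in this order lay within their SDs of each other, except that Mrps21 stood above Mrps23 by more than either SD. At the lower end stood Mrps26 at 8.03 ± 1.29, Mrps22 at 7.19 ± 1.01, Mrps25 at 5.64 ± 0.593 and Mrps10 at 4.19 ± 0.624 CPM per kb. The lowest of the large subunit were Mrpl48 at 5.73 ± 0.828, Mrpl19 at 5.26 ± 0.412, Mrpl32 at 4.93 ± 0.443 and Mrpl23, which sits at the exit of the protein tunnel, at 1.56 ± 0.218 CPM per kb. Dividing by the median length of the coding transcripts instead left Mrpl34 at rank 1 of 78 and Mrpl23 at rank 72, but moved Mrps10 from rank 77 to 51 and Mrps17 from 64 to 23. At the upper end Mrpl42 moved from rank 25 to 2, Mrpl20 from 17 to 3 and Mrpl30 from 28 to 4, while Mrpl12 moved from 2 to 5, Mrpl54 from 3 to 8, Mrpl10 from 4 to 9, Mrps28 from 10 to 34 and Mrps7 from 15 to 35. Except for the first place of Mrpl34, the order at both ends thus depended on which length was used. Even that place was narrow by transcript length, where Mrpl34 at 220 CPM per kb exceeded Mrpl42 at 211 by less than its SD of 42.0. Of the 3 genes that each descend from bacterial S18, Mrps18c was at 23.8 ± 3.70, Mrps18a at 19.9 ± 3.23 and Mrps18b at 14.4 ± 1.70 CPM per kb. By transcript length they ranked 41, 10 and 50 of 78, so their order too depended on the length used. Exon bases shared with other annotated genes make up 69.8% in Mrps25, 36% in Mrpl19, 30.5% in Mrps18b and 23.2% in Mrps18c, so that reads of these genes cannot be told apart in full.

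**Figure D1:**
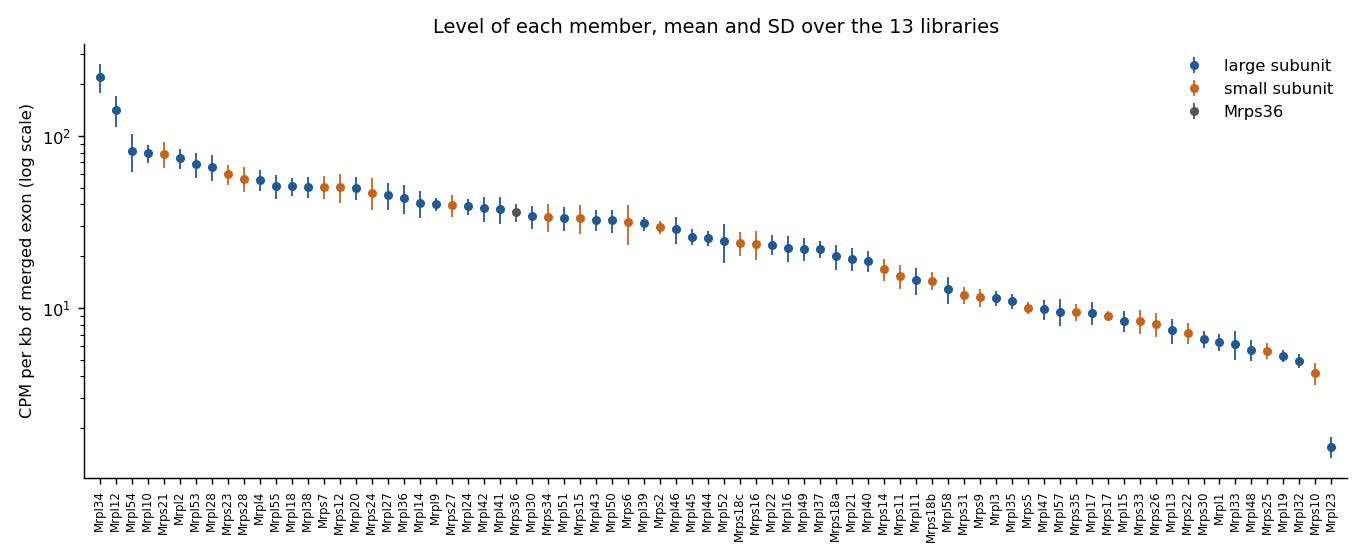
Level of each of the 78 members as CPM per kb of merged exon (log axis), mean and SD over the 13 libraries, ordered from highest to lowest. Mrpl34 at 220 and Mrpl12 at 141 stand above a continuous slope of large and small subunit genes, and Mrpl23 at 1.56 stands below it.

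The members changed together from library to library, and 1 library carried most of that change. In WT replicate 2, 77 of the 78 members had their highest level of the 13 libraries, against 25.5% of the 13360 genes tested. Each member was compared there with its mean over the other 12 libraries. The median difference was 0.56 on the log2 scale, a ratio of 1.48, with a range from 0.044 to 0.93 and all 78 above 0. The exception was Mrps2, the homologue of bacterial S2, which was highest in WT replicate 5. The summed level of the members was 7034 CPM in WT replicate 2, and between 4316 and 5181 CPM in the other 12 libraries. As a share of raw counts, without TMM factors, members made up 0.631% in that library and 0.421 to 0.535% elsewhere.

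The next largest departure was in the opposite direction. In WT replicate 1 the members' median lay at -0.20 on the log2 scale relative to the other libraries, with 7 of 78 above 0. Medians of the 8 libraries labelled iFAXLKO lay between -0.13 and 0.070. The WT group thus held both the highest and the lowest library. Its median SD of log2 CPM was 0.29 per member, against 0.11 in libraries labelled iFAXLKO and 0.10 in WT without replicate 2. For 77 of 78 members the SD was larger in WT with all 5 libraries, and for 32 of 78 without replicate 2.

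**Figure D2:**
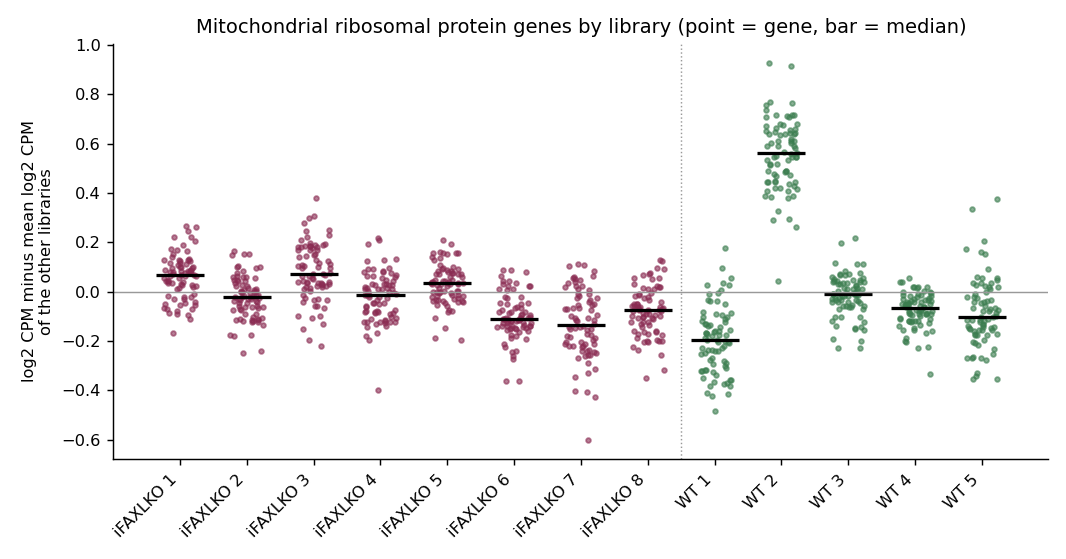
Each point is 1 of the 78 members in 1 library, as its log2 CPM minus the mean log2 CPM of the other 12 libraries, and bars mark the library's median. All members lie above 0 in WT replicate 2, where the median is 0.56, while medians of the other 12 libraries lie between -0.20 and 0.070.

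Single genes show the size of this departure. Mrpl12 was at 163.8 CPM in WT replicate 1, 341 in replicate 2, 196.5 in replicate 3, 188.7 in replicate 4 and 193.0 in replicate 5, while libraries labelled iFAXLKO ranged from 184.8 to 243 CPM with a median of 217. WT replicate 2 lay above every other library and WT replicate 1 below. Mrpl52, a large subunit protein particular to mitochondria with one of the 3 largest SDs, was at 47.9 CPM in WT replicate 2 and 21.5 to 25.5 in the other WT libraries, and its range was 22.2 to 30.2 CPM with a median of 26.8 in libraries labelled iFAXLKO. Its log2 SD within groups was 0.32, like that of Mrps6 (0.32) and below that of Mrpl54 (0.36). The smallest SDs were those of Mrps2 (0.089), Mrps17 (0.10) and Mrpl19 (0.11).

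The departure of WT replicate 2 moved with transcript length over all genes. Among 12354 tested protein-coding genes, the difference of WT replicate 2 from the other libraries had a Spearman correlation of -0.62 with the median length of a gene's coding transcripts. The correlation is across genes, which share the library, its depth and its base composition, and is given as a description. Non-member genes of up to 800 bases were higher there by a median of 0.56 on the log2 scale (545 genes), and those over 4000 bases were lower, at a median of -0.35 (3200 genes). In the other 12 libraries this correlation lay between -0.19 and 0.41, and the value of 0.41 was that of WT replicate 1, the library with the lowest member levels. Member transcripts had a median length of 1224.5 bases and all tested protein-coding genes one of 2724.25 bases.

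At like length the members departed further than other genes. In every length class the members' median in WT replicate 2 lay above that of the other genes. For up to 800 bases it was 0.64 (21 members) against 0.56, and for 800 to 1200 bases 0.62 (16 members) against 0.44. For 1200 to 1600 bases it was 0.48 (14 members) against 0.34, and for 1600 to 2400 bases 0.53 (10 members) against 0.17. For 2400 to 4000 bases it was 0.48 (11 members) against -0.053. The 6 members over 4000 bases, among them Mrps25 and Mrpl19, had a median of 0.40 against -0.35. After a smooth trend with length was removed from each library, a step added after the data were seen, the members' median in WT replicate 2 was 0.24 above the other libraries. Of the 77 members highest there before, 56 remained so, against 17.8% of all genes tested after the same step.

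**Figure D3:**
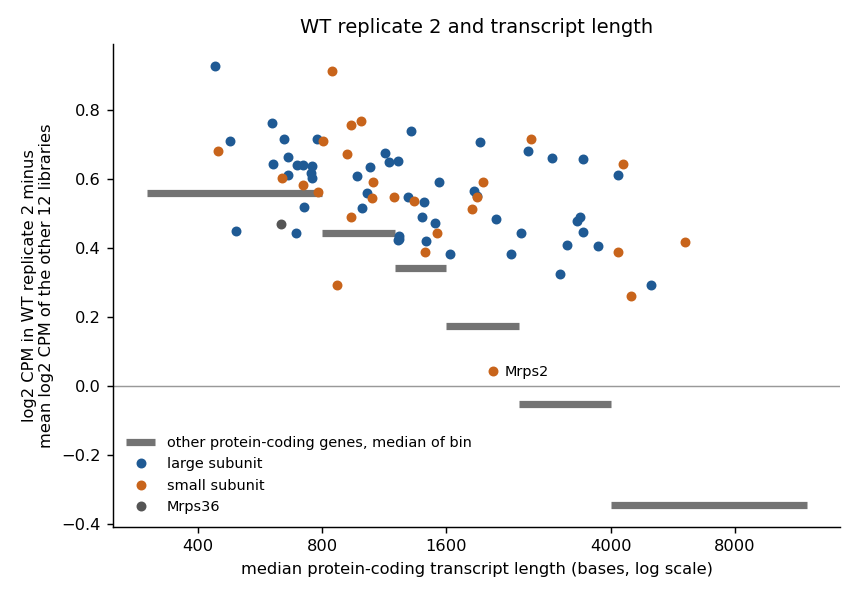
Difference of WT replicate 2 from the mean of the other 12 libraries in log2 CPM (vertical axis) against the median length of a gene's coding transcripts in bases (log axis), with a point for each member and grey bars for the median of other protein-coding genes in 6 length classes. Bars fall from 0.56 to -0.35 with length, and all points except Mrps2 at 0.044 lie at 0.26 or higher.

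Other gene groups were set beside the members in the same libraries. The 36 tested nuclear subunits of complex I, the first enzyme of the respiratory chain, were higher in WT replicate 2 by a median of 0.62 on the log2 scale, and 35 of 36 peaked there. All 79 cytosolic ribosomal protein genes peaked there as well, with a median of 0.57, as did 4 of 5 mitoribosomal proteins with other names (Dap3, Ptcd3, Aurkaip1, Chchd1 and Gadd45gip1), with a median of 0.55. For the rest of the mitochondrial translation machinery the median was 0.31 for 26 assembly factors, of which 23 peaked there, and 0.32 for 16 translation factors, of which 10 did. It was 0.24 for 20 tRNA synthetases and related enzymes, of which 12 peaked there. Differences between these lists were not tested, and the lists were not matched for transcript length. It was 0.23 for 10 genes of mitochondrial DNA replication and transcription, of which 6 peaked there, and -0.14 for 9 regulators of mitochondrial biogenesis, of which 1 peaked there. The 13 mRNAs encoded by mitochondrial DNA had a median of 0.27, and 7 of them peaked there.

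**Figure D4:**
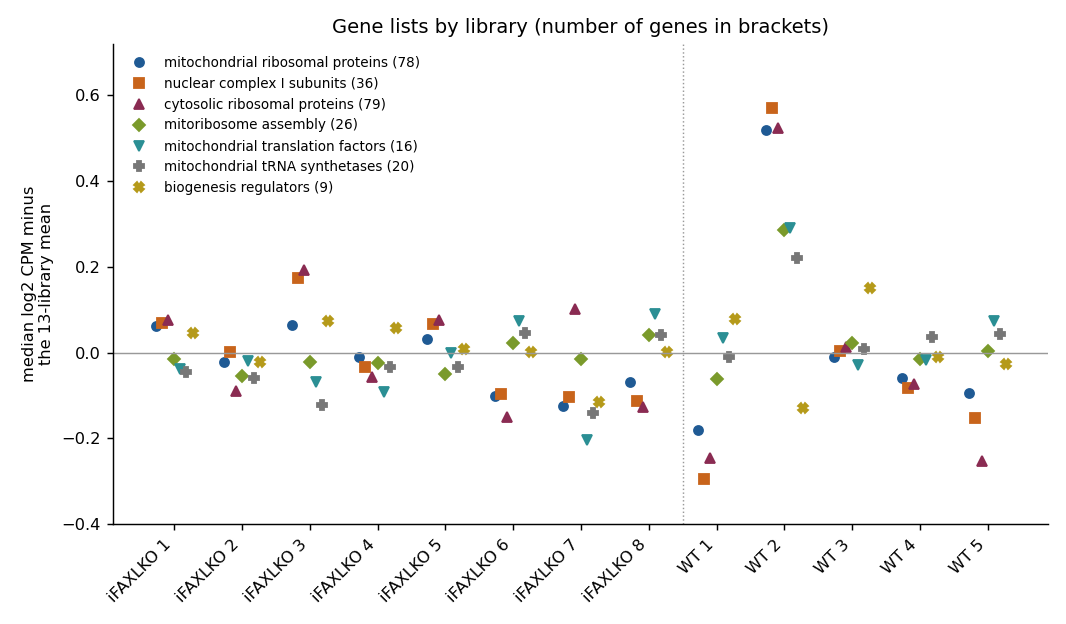
Median over each gene list of log2 CPM minus the mean of the 13 libraries, by library. In WT replicate 2 the members (0.52), complex I subunits (0.57) and cytosolic ribosomal proteins (0.52) stand together, assembly factors (0.29), translation factors (0.29) and tRNA synthetases (0.22) are lower, and biogenesis regulators are at -0.13.

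The balance between the subunits stayed narrow throughout. The summed level of the small subunit was 0.413 ± 0.0049 of that of the large subunit in libraries labelled iFAXLKO (SD, n = 8) and 0.414 ± 0.0061 in WT (SD, n = 5), with a range of 0.404 to 0.422 over all 13 libraries, WT replicate 2 included. With group means subtracted, the mean log2 levels of both subunits had a Pearson correlation of 0.99 over 13 libraries and 0.97 without WT replicate 2. Correlation of the members' mean with that of complex I subunits was 0.99 and 0.97, and with that of cytosolic ribosomal proteins 0.90 and 0.64. For assembly factors it was 0.90 and 0.28, and for translation factors 0.68 and -0.13. These points share library, depth and length trend, and no test was made.

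Each member was also set against the mean of the other 77. The median correlation was 0.92 over 13 libraries and 0.67 without WT replicate 2. Mrpl12 was most like the rest, at 0.99 and 0.96. Mrps2 had the lowest value over all libraries, -0.084, and 0.44 without WT replicate 2. Mrpl50, a large subunit protein particular to mitochondria, was at 0.40 and -0.34, and Mrpl19 at 0.59 and -0.18. Without WT replicate 2 the value was below 0 for 7 members, the lowest being Mrpl49 at -0.53 (0.73 over all libraries), which was named after its values were seen, as were Mrps31 at -0.26 and Mrpl39 at -0.24.

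The comparison of the libraries labelled iFAXLKO with WT asked whether these genes differ between adipocyte Axl deletion and its floxed control under HFD. No member passed an adjusted p of 0.05 in edgeR's quasi-likelihood test with Benjamini-Hochberg adjustment, against 0.127% of the 13360 genes tested, and the lowest adjusted p of a member was 0.535. At an unadjusted p under 0.05 there were 2 of 78 members, 2.56%, against 7.38% of all genes. Both were lower in libraries labelled iFAXLKO, as were 3.54% of all genes at that limit. DESeq2 and limma-voom likewise called 0 members at an adjusted p of 0.05. CPM ranges of the groups overlapped for all 78 members, and 0.434% of all genes had ranges without overlap. In bulk tissue, fewer cells of a type and less RNA per cell cannot be told apart.

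Directions were uneven but rested on WT replicate 2. With all libraries the log2 fold change of iFAXLKO over WT was below 0 for 72 of 78 members, 92.3%, against 53.6% of all genes, with a median of -0.076 against -0.012. Without WT replicate 2 it was above 0 for 60 of 78 members, against 51.5% of all genes, with a median of 0.074 against 0.0056. In that fit 11 members, 14.1%, had an unadjusted p under 0.05, against 12% of all genes, and 10 of them were higher in libraries labelled iFAXLKO, as were 5.62% of all genes. No member passed the adjusted threshold there either, against 0.142% of all genes, and the lowest adjusted p was 0.137. Direction changed for 54 members when this library was left out, while 18 stayed lower and 6 stayed higher. The remaining WT libraries had Spearman correlations with transcript length of 0.043 to 0.41, against -0.19 to 0.23 in libraries labelled iFAXLKO. Member transcripts are short, and the part of length in the direction without WT replicate 2 was not tested. A typical SE of a member's log2 fold change was 0.11 with all libraries, with a range of 0.065 to 0.18.

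**Figure D5:**
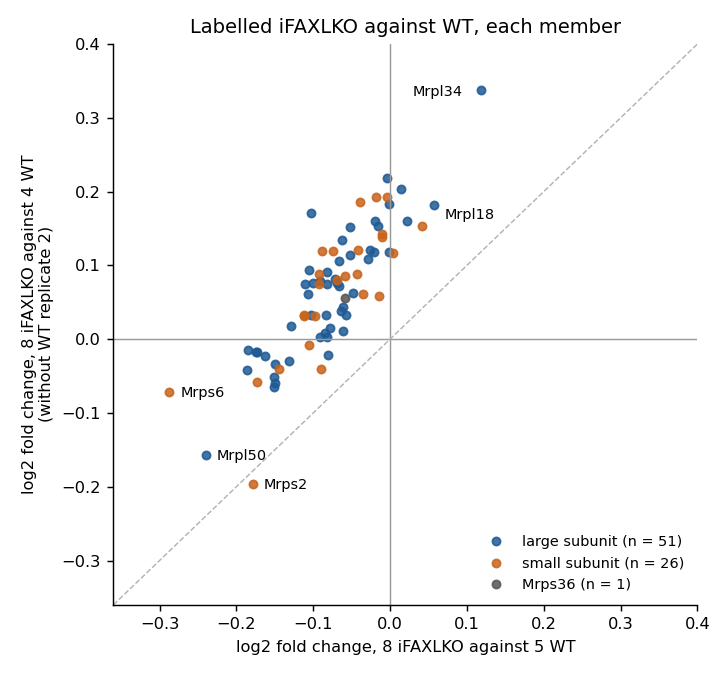
Log2 fold change of libraries labelled iFAXLKO over WT for each member with all 5 WT libraries (horizontal axis) and without WT replicate 2 (vertical axis), where the dashed line marks equal values. All members except Mrps2 lie above the line, and 54 change from below 0 to above 0.

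Values by subunit and class are given as a description, with no test of a difference between them. The classes separate proteins with bacterial homologues from those counted as particular to mitochondria. Mrps18a and Mrps18b were put in the latter class although they descend from bacterial S18, and Mrpl55 is in neither class. Of 51 large subunit genes 47 were lower, with a median of -0.081, and without WT replicate 2 the median was 0.073. Of 26 small subunit genes 24 were lower, with a median of -0.072, and without that library it was 0.083. Large subunit proteins with bacterial homologues (29) had a median of -0.062 and 0.074 in these fits, with 25 above 0 in the second. Those counted as particular to mitochondria (21) had one of -0.10 and 0.033, with 13 above 0 in the second. The corresponding values were -0.066 and 0.10 for the small subunit (16) and -0.081 and 0.067 (10). The summed level was 4857 ± 241 CPM in libraries labelled iFAXLKO (SD, n = 8) and 5114 ± 1092 CPM in WT (SD, n = 5), or 4634 ± 232 CPM without WT replicate 2 (SD, n = 4). The difference between groups was smaller than the SD within WT in the first case and smaller than either SD in the second.

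Mrps2 had the smallest p of the members and did not follow WT replicate 2. It was at 91.5, 88.4, 97.5, 89.1 and 98.0 CPM in WT replicates 1 to 5. In libraries labelled iFAXLKO it ranged from 73.6 to 90.3 CPM with a median of 82.7, and all 8 lay below the WT mean of 92.9 ± 4.59 CPM (SD, n = 5). Only iFAXLKO replicate 5 reached into the WT range. Its log2 fold change was -0.18 (SE 0.065), with an unadjusted p of 0.0148, an adjusted p of 0.535 by edgeR, and 0.00466 in a two-sided exact permutation test of log2 CPM. Without WT replicate 2 the value was -0.20 with an adjusted p of 0.264 by edgeR. The exact permutation p is not adjusted for the choice of Mrps2 as the member with the smallest p. The transcript is that of a gene at chr2:28468066-28471178 on the plus strand, with no exon shared with another annotated gene.

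Mrpl50 was at 75.5, 91.9, 61.7, 63.4 and 83.5 CPM in WT replicates 1 to 5, and from 52.2 to 71.0 CPM with a median of 65.1 in libraries labelled iFAXLKO. All 8 lay below the WT mean, but WT replicates 3 and 4 fell inside their range. Its log2 fold change reached -0.24 (SE 0.10), with an unadjusted p of 0.0323, an adjusted p of 0.628 by edgeR and an exact permutation p of 0.0575. Without WT replicate 2 it was -0.16 with an adjusted p of 0.529.

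The other 4 members with the smallest p did not pass an unadjusted 0.05 and took their difference mostly from WT replicate 2. Mrpl1, a protein of the stalk near the exit of spent tRNA, was at 35.9 CPM in that library and 26.7 to 27.6 in the other WT libraries, against 22.8 to 28.5 with a median of 26.2 in libraries labelled iFAXLKO. Its log2 fold change was -0.15 with all libraries and -0.060 without that library. For Mrps22, particular to mitochondria, the levels were 40.4 CPM, 26.5 to 31.8 CPM and 24.4 to 30.2 CPM with a median of 27.5, and the log2 fold changes -0.17 and -0.058. Mrps30 was at 59.6 CPM, 42.6 to 44.4 CPM and 39.2 to 47.0 CPM with a median of 41.1, with log2 fold changes of -0.15 and -0.051. Mrps6, a homologue of bacterial S6 that shares 19.9% of its exon bases with genes on the same strand, was at 84.4 CPM, 38.0 to 59.8 CPM and 36.2 to 53.2 CPM with a median of 45.9, with log2 fold changes of -0.29 and -0.072. For each, the libraries labelled iFAXLKO overlapped with the other 4 WT libraries, adjusted p lay between 0.717 and 0.734 by edgeR, and exact permutation p between 0.0567 and 0.226.

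Mrpl34, the most abundant member per kb of merged exon, had the smallest p once WT replicate 2 was left out. It is described here after its values were seen, since the gene and the fit were picked from them. The exact permutation p below is not adjusted for that choice and lends no support of its own. Mrpl34 has coding transcripts with a median length of 607 bases, and the part of transcript length in its difference was not tested. It was at 96.7, 198.8, 120.3, 113.7 and 105.9 CPM in WT replicates 1 to 5 and from 122.9 to 155.8 CPM with a median of 137 in libraries labelled iFAXLKO. WT replicate 2 lay above all of these, and the other 4 WT libraries lay below all 8. On the log2 scale the fold change came to 0.12 (SE 0.14), with an adjusted p of 0.910 with all libraries. Without WT replicate 2 it was 0.34 (SE 0.075), with an adjusted p of 0.137 by edgeR and an exact permutation p of 0.00202, the smallest the 8 and 4 libraries can give. The other members with a low p in that fit were Mrps2 and, all higher, Mrpl18, Mrpl12, Mrpl27, Mrps16, Mrps34, Mrpl14, Mrps14, Mrps25 and Mrpl55, with log2 fold changes from 0.12 to 0.22. Mrps34 shares 77.8% of its exon bases with other genes.

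The genes that serve the mitoribosome were counted in the same fit, with no adjusted call in any of these lists and in either direction. Of 16 translation factors 13 had a log2 fold change below 0, with a median of -0.10 and -0.046 without WT replicate 2. The smallest p were those of Mrrf, the ribosome recycling factor (-0.19, SE 0.071, adjusted p 0.551 by edgeR), and Mtrf1, a release factor (-0.24, SE 0.097, adjusted p 0.609). Of 20 tRNA synthetases and related enzymes 17 lay below 0, with a median of -0.10 and -0.072 without that library. Ears2, the glutamyl-tRNA synthetase, was at -0.29 (SE 0.093, adjusted p 0.490 by edgeR) and Gatb, a subunit of the enzyme that makes glutaminyl-tRNA, at -0.28 (SE 0.093, adjusted p 0.507). Unlike the members, these lists kept medians below 0 in both fits. So did assembly factors, genes of mitochondrial DNA maintenance and transcription, and mRNAs encoded by mitochondrial DNA, all given below. The difference between the lists was not tested, and they were not matched for transcript length.

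Of 26 assembly factors 23 lay below 0, with a median of -0.083 and -0.030 without WT replicate 2, and Fastkd2, an RNA-binding protein of rRNA maturation, was at -0.18 (SE 0.067, adjusted p 0.550 by edgeR). Nsun4, an rRNA methyltransferase, was at -0.14 (SE 0.076, adjusted p 0.717). Among 10 genes of mitochondrial DNA maintenance and transcription 6 lay below 0, with a median of -0.045, or 5 with a median of -0.0035 without WT replicate 2. The smallest p were those of the helicase Twnk (-0.23, SE 0.072, adjusted p 0.480 by edgeR) and the mitochondrial RNA polymerase Polrmt (-0.17, SE 0.073, adjusted p 0.625). Twnk shares exon bases with Mrpl43 on the opposite strand. The 9 regulators had a median of 0.0060, or -0.021 without WT replicate 2, with Nrf1 at 0.13 (SE 0.094) and Gabpa, the ETS factor of GABP, at -0.13 (SE 0.10), and adjusted p of 0.821 and 0.840 by edgeR. Of 5 mitoribosomal proteins with other names 4 lay below 0, with a median of -0.081, and without WT replicate 2 4 lay above 0 with a median of 0.070. Ptcd3 was at -0.10 (SE 0.077) and Dap3 at -0.081 (SE 0.086), or -0.12 and 0.011 without that library.

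The RNAs that the mitoribosome holds and reads were set beside the members as well. The rRNAs mt-Rnr1 of the small and mt-Rnr2 of the large subunit summed to 6154 to 14444 CPM in libraries labelled iFAXLKO and 8355 to 12603 CPM in WT, with log2 fold changes of -0.043 (SE 0.19) and -0.10 (SE 0.21). The correlation of their mean with that of the members was -0.0094 over 13 libraries and -0.37 without WT replicate 2. The sources differ on whether polyadenylated RNA was selected or rRNA depleted, and the part of either in these counts was not tested. The 13 mRNAs summed to 188328 ± 13261 CPM in libraries labelled iFAXLKO (SD, n = 8) and 198839 ± 10262 CPM in WT (SD, n = 5), and 12 of 13 had a log2 fold change below 0, with a median of -0.097. Without WT replicate 2 it was below 0 for 8 of 13, with a median of -0.032. The correlation of the mRNAs' mean with that of the members was 0.44 over 13 libraries and 0.14 without WT replicate 2. With all libraries mt-Nd2 was at -0.25 (SE 0.10, adjusted p 0.619 by edgeR) and mt-Nd3 at -0.32 (SE 0.13, adjusted p 0.621). Of 36 complex I subunits 35 lay below 0 with a median of -0.049, and without WT replicate 2 34 lay above 0 with a median of 0.14. Ndufs1 was at -0.18 (SE 0.11) and Ndufa9 at -0.13 (SE 0.090). Cytosolic ribosomal protein genes had a median of -0.0089, and without WT replicate 2 all 79 lay above 0 with a median of 0.15, Rpl35 at -0.11 and 0.051 and Rpl4 at -0.080 and 0.0030 in these fits.

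Markers of other cells differed between the libraries and stand beside these values. Fibroblast markers were higher in libraries labelled iFAXLKO at an unadjusted p under 0.05 for 10 of 10 genes and at an adjusted one for 0, with a summed level of 560 to 1228 CPM against 404 to 717 CPM in WT. With their mean as a covariate the members' median was -0.047, with 25 above 0. The 6 macrophage markers were likewise higher at an unadjusted p, with summed levels of 108 to 203 CPM against 87.8 to 128 CPM. Skeletal muscle markers summed to 110 to 6120 CPM in libraries labelled iFAXLKO and 140 to 4192 CPM in WT, and with their mean as a covariate the members' median was -0.060. Endothelial markers summed to 596 to 937 CPM and 475 to 733 CPM, with the lowest value in WT replicate 2. None of these 36 markers was at 0 in a whole group. Of the 12 brown adipocyte markers 9 had a log2 fold change below 0, with a median of -0.073. Without WT replicate 2 the median was 0.050, with 7 above 0. With all libraries Adipoq, whose promoter drives the Cre, was higher in libraries labelled iFAXLKO (log2 fold change 0.66, SE 0.11, adjusted p 0.0118 by edgeR). Elovl3, an enzyme of fatty acid elongation, was at -0.69 (SE 0.21, adjusted p 0.474 by edgeR).

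Library numbers in the labels fell into a lower range of 6 libraries (iFAXLKO replicates 1 to 4, WT replicates 1 and 2) and an upper range of 7. The labels do not say what these numbers mark. In the lower range, which holds both extreme WT libraries, the members' median log2 difference was -0.16 with 8 of 78 above 0, and in the upper range it was -0.0068 with 34 of 78 above 0.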

How the data were processed

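The deposited files hold raw counts of reads per Ensembl gene identifier, 1 file per library. The sources differ on how the authors made these counts. The study's methods name rRNA depletion, Trim Galore, hisat2 and GRCm38 with Ensembl transcripts, whereas the labels give polyadenylated RNA and a TruSeq kit, and the submitters' processing notes list bcl2fastq 2.20, fastp 0.20.0, STAR 2.7.4a, DESeq2 and GRCm38.p6. Counting tool and strand setting are not given in the sources used here, so reads of overlapping genes cannot be told apart.

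Identifiers were matched to symbols, biotypes and exons by GENCODE M21 (GRCm38) and a table of gene names, and 69 had no position. Groups came from the sample titles. A gene was kept at over 1 CPM in 5 libraries or more, and the 13360 kept of 42416 were fitted with edgeR 4.0.16 in R 4.3.3 (TMM factors, robust quasi-likelihood F test, 2-sided, Benjamini-Hochberg adjustment over all of them). The step was tested on simulated data. Values within libraries are TMM-scaled CPM or log2 CPM with a prior count of 2. Alternatives used DESeq2 1.42.0, limma 3.58.1, other scalings, filters and covariates, a replicate block and the removal of each library. Single members were also tested by exact permutation over 1287 arrangements of 8 and 5 libraries, of which the smallest possible p is 0.000777.

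The rule for names took members with an unadjusted p under 0.05 or, if under 6, the 6 with the smallest p, for levels the 4 highest and 4 lowest per subunit, the 3 largest and 3 smallest SDs and the Mrps18 paralogs, and from each list of other genes the 2 with the smallest p. The gene family, its rule and the lists were chosen with earlier results of these data known. Total counts were 22.4 to 32.6 M, and 3 counts, the limit that a count of 0 allows, are 0.092 to 0.134 CPM, which covers counting error only. The lowest chi-square of a pair of libraries within a group was 16.6 per degree of freedom, so none was a duplicate. Libraries carry a replicate number and no animal identifier, so p-values measure the spread between these samples.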

Additional observations from a re-analysis of the deposited data

Results flagged for a closer look

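Within the WT group 1 library lay far from the other 4 for several measures. A measure is listed where the gap of the extreme library to its nearest neighbour, divided by the range of the group, exceeded Dixon's 95% critical value for the size of the group. Of 68 groups of values examined 23 passed, all with WT replicate 2 as the highest library, while chance flags about 1 in 20. The measures share that library, so the 23 are not independent. None of the libraries labelled iFAXLKO stood apart by this rule.

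For summed levels the ratio was 0.795 for all members, 0.792 for the large subunit, 0.803 for the small subunit, 0.784 for complex I subunits and 0.724 for cytosolic ribosomal proteins. For the large subunit genes examined it was 0.769 for Mrpl34, 0.815 for Mrpl12, 0.763 for Mrpl10, 0.842 for Mrpl48, 0.726 for Mrpl19, 0.719 for Mrpl23, 0.848 for Mrpl52, 0.898 for Mrpl1, 0.894 for Mrps30 and 0.728 for Mrps18a. For those of the small subunit it was 0.785 for Mrps21, 0.727 for Mrps23, 0.848 for Mrps7, 0.847 for Mrps26, 0.836 for Mrps25, 0.794 for Mrps10, 0.751 for Mrps18b and 0.753 for Mrps18c. In all, 18 of the 26 genes examined were among them, and Mrps2 and Mrpl50 were not.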

How the results depend on the processing

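The count of members with an adjusted p under 0.05 was 0 in every alternative run. The members' median log2 fold change was -0.076 and ranged from -0.082 to 0.049 over alternatives that kept or reweighted the libraries, and from -0.12 to 0.074 when each library was left out. It was above 0 without WT replicate 2 and in limma-voom with quality weights, where that library had a weight of 0.170, the lowest of 13. Genes called over all genes were 17, 14 to 19 when each library was left out, 67 with DESeq2, 7 among protein-coding genes alone and 8 with a fibroblast score as a covariate. Members above 0 were 6 of 78, 17 with upper quartile factors, 27 with library sizes that leave out mitochondrially encoded and the 10 most abundant genes, 55 with limma-voom, 12 among protein-coding genes alone, 13 and 25 with a muscle or fibroblast score as a covariate, 18 with an offset for transcript length (added after the data were seen, 5 members, 6.41%, at an unadjusted p under 0.05 against 9.87% of all genes), and 2 (without WT replicate 1) to 60 (without WT replicate 2) when each library was left out. The count also moved by over 1.5 times without WT replicate 4 (3) or 5 (3) and without iFAXLKO replicates 2 (10), 4 (12), 6 (12), 7 (13) or 8 (12). The cause was not tested. Mrps2, Mrpl50, Mrpl1, Mrps22, Mrps30 and Mrps6 stayed below 0 throughout.

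Replicate numbers shared by the groups did not pair the libraries. Same-numbered libraries correlated at 0.39, 0.42, 0.19, 0.18 and -0.61 in their deviations from group means, and 1 of 5 pairs was the best match on both sides. With a replicate block over the 10 libraries of these numbers, 7 genes were called, 35 members lay above 0 and their median was -0.0089. The same 10 libraries without the block, an alternative added after the data were seen, gave 11 genes, 24 members and -0.033. Depth limits little here, as the lowest member mean in a group was 7.48 CPM.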

Other observations

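The members are spread over 17 chromosomes, with 11 of 78 on chromosome 11 and 8 on chromosome 17. For 33 of 78, 42.3%, the annotated end where the gene starts lies within 1000 bases of the start of a protein-coding gene on the opposite strand, against 16.2% of the 12354 protein-coding genes tested. Mrpl46 and Mrps11 form such a pair with each other. Mrpl36 lies opposite Ndufs6 and Mrpl47 opposite Ndufb5, which encode complex I subunits, Mrpl43 lies opposite Twnk, and Mrps12 opposite Sars2, the mitochondrial seryl-tRNA synthetase. Mrpl49 lies opposite Fau, which encodes a cytosolic ribosomal protein. These are positions in GRCm38 and were not related to the counts.

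For 10 members more than 20% of the exon bases are shared with another annotated gene. The share is 88.0% for Mrpl53, all of it on the same strand, 77.8% for Mrps34 and 69.8% for Mrps25, which lies opposite Nr2c2. Where bases are shared on the same strand, no strand setting would tell reads of the neighbours from their own. Where they are shared with the opposite strand, such reads cannot be told apart either, since the strand setting of the counting is not given in the sources used here.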
